A study of Mus musculus with 6 samples.

Results

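The ubiquitin C-terminal hydrolase (UCH) family is described here by 4 genes, Uchl1, Uchl3, Uchl5 and Bap1, of 19938 genes measured in mouse cells, titled Pca in the labels, with and without valproic acid (VPA). The family was chosen by a measured value, the higher level of Uchl1 with VPA on these same arrays, and the other 3 genes were taken as its relatives whatever their values. Each gene was read through a probe set that names exactly 1 gene, and all 4 members had a single such probe set. Levels are log2 values from the RMA method, which puts the arrays on one common distribution, so they show changes of a gene between arrays and not which of several genes is more abundant.

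Total RNA was hybridised to Affymetrix mouse Gene 1.0 ST arrays, 3 from control cells and 3 from VPA-treated cells, each described as a biological replicate. The study asked how VPA, an antiepileptic fatty acid that inhibits histone deacetylases, acts against cancer, with cyclin D2 in its title. Groups follow the sample titles, which read Pca_control and Pca_vpa. The other fields of the same samples disagree with the titles: they give the control samples the strain 129SV and the cell type differentiated stem cells, and the VPA samples the strain Stra8-EGFP/Rosa26 and the cell type undifferentiated stem cells. If those fields were right, strain, cell state and treatment could not be told apart, and every VPA difference below carries that limit. No label names the cell line, the dose or the duration. The medians of the arrays lay between 7.15 and 7.18, and the number of arrays limits the precision.

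UCH enzymes are cysteine proteases that release ubiquitin from small adducts and from the ends of chains. Uchl1 is very abundant in neurons and serves as a marker of neuronal and neuroendocrine cells, and it is also found in spermatogonia. Uchl3 is its close relative and also processes the ubiquitin-like protein Nedd8. Uchl5 works at the regulatory particle of the proteasome and in the INO80 chromatin remodelling complex. Bap1 is a nuclear tumour suppressor that, with an Asxl protein, takes ubiquitin off histone H2A.

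The promoters of Uchl1 and Uchl3 are shown because these are the members whose VPA arrays all lay above the control arrays. The windows hold the 250 bases before the start site that RefSeq's promoter table of GRCm38.p6 uses for each gene. That site is not always the first base of the annotated gene: the last 75 bases of the Uchl3 window, 44 of the Uchl5 window and 137 of the Bap1 window lie inside the gene's outer bounds, and 0 of the Uchl1 window. The stretch before the annotated gene is shown, chr5:66675871-66676120 for Uchl1 (250 bases) and chr14:101653717-101653891 for Uchl3 (175 bases), both on the plus strand, with every CG dinucleotide in capitals.
Uchl1: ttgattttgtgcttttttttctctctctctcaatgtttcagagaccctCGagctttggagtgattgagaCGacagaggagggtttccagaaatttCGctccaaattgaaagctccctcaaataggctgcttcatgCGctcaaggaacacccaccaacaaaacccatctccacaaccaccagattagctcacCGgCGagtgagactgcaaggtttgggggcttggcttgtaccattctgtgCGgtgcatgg
Uchl3: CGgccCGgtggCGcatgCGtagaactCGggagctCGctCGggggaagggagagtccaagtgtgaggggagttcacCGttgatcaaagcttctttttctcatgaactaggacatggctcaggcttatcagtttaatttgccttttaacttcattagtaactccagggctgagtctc
The Uchl1 window held 7 CG dinucleotides and had 48.8% G and C bases, near the medians of 6 and 52.4% over 32841 promoters of that length. Over their whole 250 bases the Uchl3 window held 15, of which 8 are in the stretch shown, the Uchl5 window 30 and the Bap1 window 43, and 53.7%, 72.7%, 94.1% and 99.3% of promoters held fewer than those of Uchl1, Uchl3, Uchl5 and Bap1. The GC box GGGCGG, read on both strands and itself holding a CG, occurred 0 times in the Uchl1 window, 1 time in that of Uchl3, 4 times in that of Uchl5 and 3 times in that of Bap1, and 32.7% of all promoters held it. Neither CCAAT nor TATAAA was found on either strand in any of the 4 windows, against 33.9% and 12.4% of promoters that held them. Methylation and histone acetylation at these windows were not measured.

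Uchl1 had log2 values of 7.66, 7.99 and 7.18 in control replicates 1, 2 and 3 and of 9.72, 9.54 and 8.81 in VPA replicates 1, 2 and 3. All VPA arrays lay above all control arrays, with a gap of 0.82 between the highest control array and the lowest VPA array. The means were 7.61 ± 0.41 (SD, n = 3) in control and 9.36 ± 0.48 (SD, n = 3) in VPA arrays. The difference of 1.75 (SE 0.249, 95% interval 1.19 to 2.31) corresponds to 3.36-fold, and it ranked 2 among the 19938 differences ordered from the highest. Because Uchl1 was picked for this difference, these numbers are a description and carry no test. In RNA from whole cultures, more cells of a type and more RNA per cell cannot be told apart. Its spread between arrays of a group was also wide: the within-group SD of 0.447 was larger than that of 99.4% of genes. Control replicate 3 and VPA replicate 3 were the lowest arrays of their groups.

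Uchl3 had log2 values of 9.28, 9.15 and 9.35 in control replicates 1, 2 and 3 and of 9.56, 9.68 and 9.71 in the VPA replicates. These groups did not overlap either, but the gap was narrower, at 0.21. The means were 9.26 ± 0.10 and 9.65 ± 0.08 (SD, n = 3 each), a difference of 0.39 (SE 0.0909, 95% interval 0.18 to 0.59) or 1.31-fold. In limma's moderated test it did not pass, with an adjusted p of 0.0612 over all genes, and the adjusted p ran from 0.037 to 0.226 over 15 other settings. It passed in 3 of them, with genes of low signal left out (0.0437), with an intensity trend and robust prior (0.0453) and with the replicate number as a block (0.037). All 3 VPA arrays were above all control arrays in this gene, and its within-group SD of 0.091 was larger than that of only 27.7% of genes.

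Another probe set of the array is listed to both Uchl3 and Uchl4, a mouse relative of Uchl3, and therefore names neither gene. It read 5.70, 5.69 and 5.77 in the control replicates and 5.95, 5.97 and 6.12 in the VPA replicates, so all VPA arrays were higher here as well. Its difference of 0.29 (SE 0.0861) did not pass limma's test over all 35556 probe sets, at an adjusted p of 0.279.

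Uchl5 had log2 values of 10.73, 10.69 and 10.92 in control replicates 1, 2 and 3 and of 10.81, 10.81 and 10.72 in the VPA replicates. The VPA values lay inside the control range. The means of 10.78 ± 0.13 and 10.78 ± 0.05 (SD, n = 3 each) differed by -0.00347 (SE 0.0924), and limma's adjusted p was 0.987. The 95% interval of the difference, from -0.21 to 0.20, spans 0.864-fold to 1.15-fold, so a change of a size within these bounds remains possible.

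Bap1 had log2 values of 10.18, 10.14 and 10.20 in control replicates 1, 2 and 3 and of 10.35, 10.13 and 10.29 in the VPA replicates. VPA replicate 2 was the lowest of all the arrays and VPA replicate 1 the highest, so the groups overlapped. The difference was 0.08 (SE 0.0891, 95% interval -0.12 to 0.28), with an adjusted p of 0.649 in limma's test, and the interval spans 0.922-fold to 1.22-fold. The control arrays were close together, with an SD of 0.03 against 0.11 in the VPA arrays (n = 3 each).

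**Figure D1:**
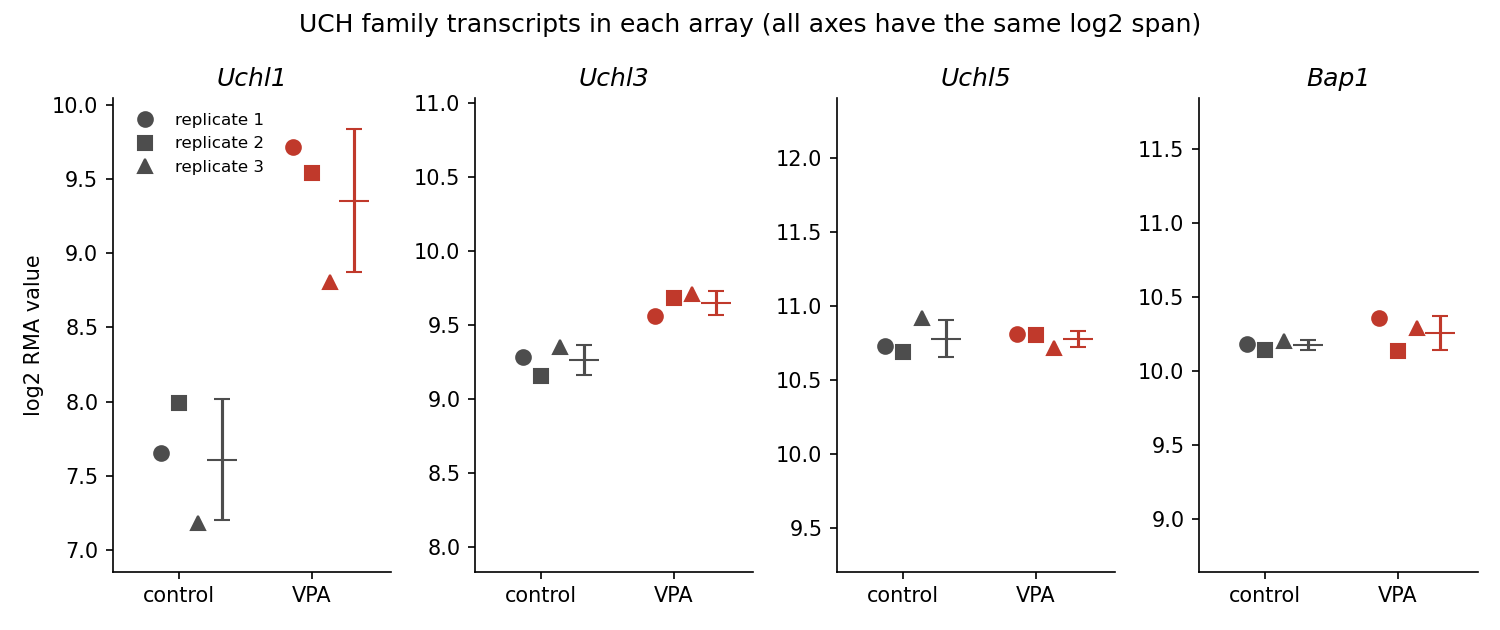
Log2 RMA values of the 4 UCH family genes in each control (grey) and VPA (red) array, with a symbol for each replicate number; the bar beside each group is the mean with 1 SD (n = 3). Uchl1 and Uchl3 have all VPA arrays above the control arrays, with gaps of 0.82 and 0.21, whereas the groups overlap for Uchl5 and Bap1.

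Of the 3 members other than Uchl1, 0 passed limma's test at an adjusted p under 0.05, and 1, Uchl3, had an unadjusted p under 0.05. Over all genes 2.34% passed, 1.71% higher and 0.632% lower with VPA, and by unadjusted p (0.05) 9.82% were higher and 8.30% lower. The groups of arrays did not overlap in 1 of these 3 genes, against 23.1% of all genes, of which 11.1% of genes had all VPA arrays above and 12.0% all VPA arrays below. These shares of so few genes are not a result about the family.

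The genes beside Uchl1 on its chromosome did not pass. Apbb2, which encodes an adaptor that binds the amyloid precursor protein, and Nsun7, of an RNA methyltransferase family, lie before it in the annotation and differed by 0.21 each (SE 0.186 and 0.243, limma adjusted p 0.569 and 0.675). Limch1, an activator of non-muscle myosin, and Tmem33 lie after it and differed by -0.18 and -0.04 (SE 0.109 and 0.0864, adjusted p 0.409 and 0.852). The antisense RNA that overlaps the start of Uchl1 was not analysed here.

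Beside Uchl3, the cytoskeletal adaptor gene Lmo7 rose, from 8.69, 8.64 and 8.51 in the control replicates to 9.47, 9.10 and 9.09 in the VPA replicates, a 1.52-fold difference (log2 0.61, SE 0.118, limma adjusted p = 0.0343). All its VPA arrays lay above all its control arrays. This call held without VPA replicate 3 and ended without control replicate 1, 2 or 3 or VPA replicate 1 or 2, at adjusted p of 0.103, 0.0544, 0.113, 0.1 and 0.084. The other neighbours Commd6, Tbc1d4 and Gm9922 differed by 0.26, 0.22 and -0.16 and did not pass (adjusted p 0.227, 0.365 and 0.362). Next to Uchl5, Rgs2, a regulator of G protein signalling, differed by -0.36 (SE 0.123, adjusted p = 0.163), and Rgs13, Glrx2 and Ro60 by 0.34, 0.10 and 0.04 (adjusted p 0.306, 0.567 and 0.859). Next to Bap1, Phf7, Capn7, Sema3g and Dnah1 lay between -0.00273 and 0.13, with adjusted p from 0.447 to 0.99.

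The genes whose values followed Uchl1 most closely over the 6 arrays, among 563 other genes that spanned at least 1 on the log2 scale, were Ceacam19, Ttll1, Tex15, Reps2, Vsnl1 and Zfp941. Ceacam19, of the carcinoembryonic antigen family, had values of 6.89, 7.13 and 6.61 in the control replicates and of 8.22, 8.09 and 7.58 in the VPA replicates, with a Pearson r of 0.999 to Uchl1. Ttll1, part of a tubulin polyglutamylase, and Tex15, a gene known from meiosis in testis, had r of 0.997 and 0.996. Reps2, of an endocytic protein family, Vsnl1, a neuronal calcium sensor, and Zfp941, a zinc finger gene, had r of 0.996, 0.993 and 0.993. Every one of them had its lowest control value in control replicate 3 and its lowest VPA value in VPA replicate 3, as Uchl1 had. With the group means taken off, r to Uchl1 was still between 0.971 and 0.998 over the same 6 arrays. These correlations describe the 6 arrays only. The genes were picked as the highest of many, and they share the arrays and the group difference for which Uchl1 was chosen.

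**Figure D2:**
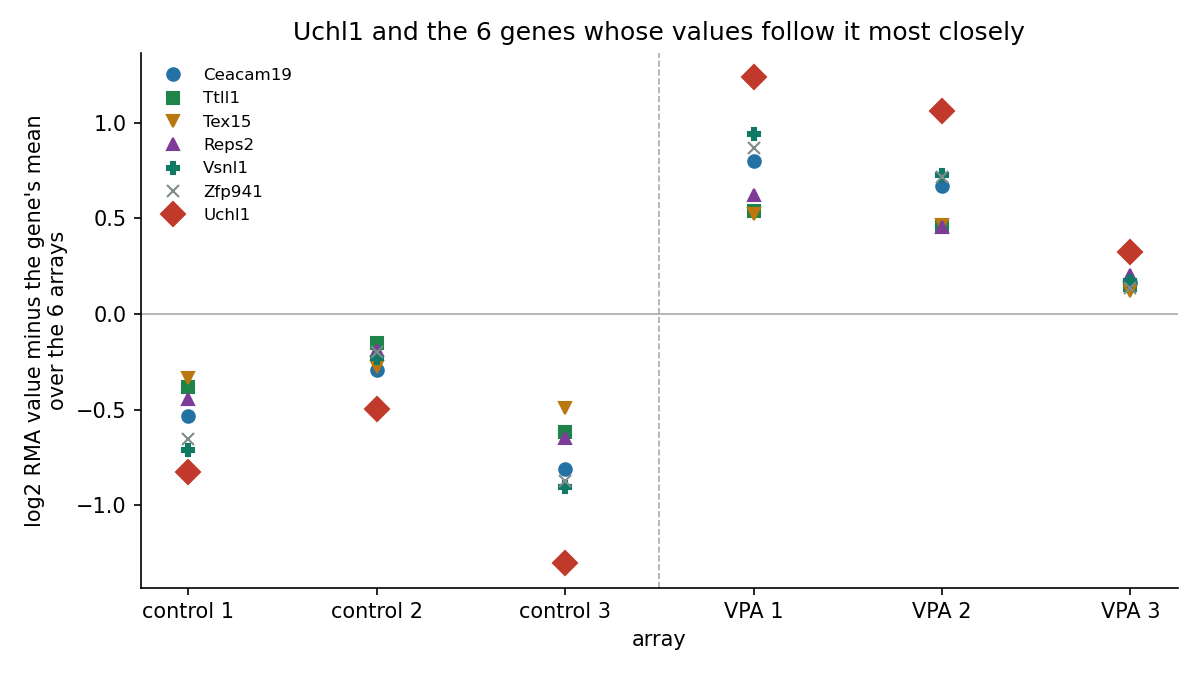
Log2 RMA value of Uchl1 (red diamonds) and of the 6 genes most like it, each minus its own mean over the 6 arrays, in control arrays (left of the dashed line) and VPA arrays (right). Within each group replicate 3 is lowest for all 7 genes, and Pearson r to Uchl1 is from 0.993 to 0.999.

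Among genes listed to the other deubiquitinase families, 1 of 87 measured genes rose in limma's test, 0 fell and 86 did not pass. So 1.15% rose beside 1.71% of all genes. The list follows family names and holds Pan2, entered as Usp52, and the activity of each member was not checked. By unadjusted p (0.05), 15 lay higher (17.2%, beside 9.82% of all genes) and 6 lay lower (6.90%, beside 8.30%). Usp44, a ubiquitin-specific protease that acts on histone H2B and in the mitotic checkpoint, was the gene that rose, from 7.62, 7.45 and 7.49 in the control replicates to 8.90, 8.47 and 8.10 in the VPA replicates. That is 1.95-fold (log2 0.97, SE 0.172, limma adjusted p = 0.0259), and its groups did not overlap. Leaving out control replicate 1 or 3, or else VPA replicate 1 or 2, ended this call, at adjusted p of 0.0896, 0.0872, 0.058 and 0.0915. Leaving out 1 array also moved the count of these 87 genes that rose. It was 0 without any of those 4 arrays and 4 without control replicate 2 or VPA replicate 3. All VPA arrays lay above all control arrays in 17 of the 87 genes (19.5%, beside 11.1% of all genes) and below in 5 (5.75%, beside 12.0%), and the median difference was 0.05, beside -0.04 over all genes.

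Among 16 OTU proteases Otub2 differed by 0.58 and Alg13, a glycosylation enzyme with an OTU domain, by 0.25 (SE 0.142 and 0.0916), and none passed (adjusted p 0.0692 and 0.186 for these). Over all genes 2.34% passed. At an unadjusted p under 0.05, 2 of the 16 were higher (12.5%, beside 9.82% of all genes). Of 8 Josephin, MINDY and ZUP1 proteases none passed. By unadjusted p (0.05) 3 lay higher (37.5%, beside 9.82% of all genes) and 1 lay lower (12.5%, beside 8.30%). Mindy3 differed by 0.27 and Mindy1 by -0.33 (limma adjusted p 0.14 and 0.162). Of 7 JAMM metalloproteases none passed, and 1 was higher at an unadjusted p under 0.05 (14.3%, beside 9.82% of all genes). Mpnd differed by 0.38 and the proteasomal Psmd14 by -0.27 (limma adjusted p 0.103 and 0.305).

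**Figure D3:**
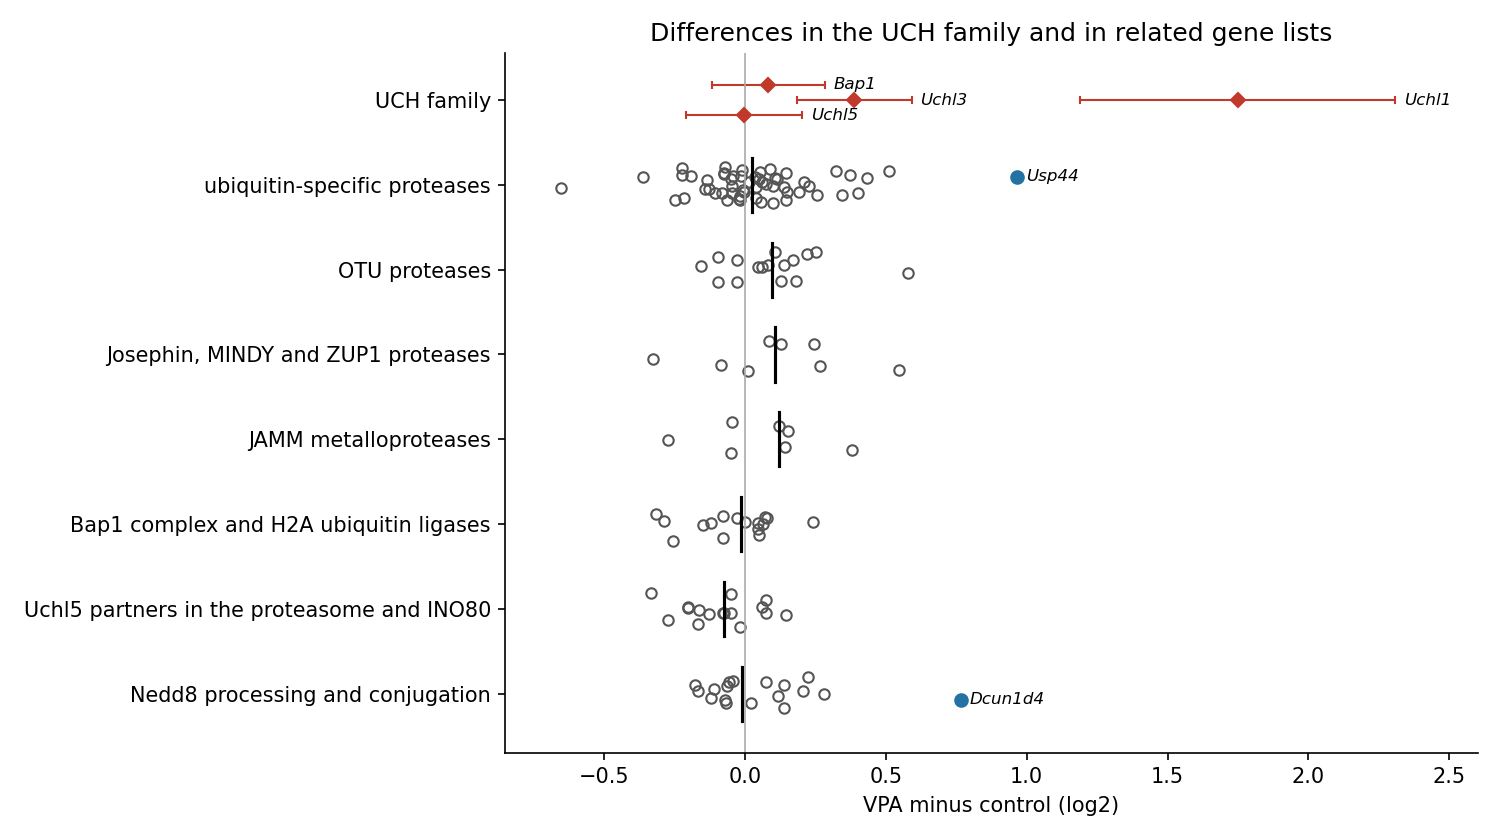
VPA minus control difference (log2) of the UCH family (red diamonds with 95% intervals) and of each measured gene in related lists (circles), with a bar at each list's median. Filled blue circles passed limma's test over all genes; these are Usp44 at 0.97 and Dcun1d4 at 0.77, both below Uchl1 at 1.75.

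The measured partners of Bap1 and Uchl5 showed no called change. Of 16 measured genes of the Bap1 complex and of H2A ubiquitin ligases, 0 passed limma's test (beside 2.34% of all genes). By unadjusted p (0.05) 0 lay higher (beside 9.82% of all genes) and 3 lay lower (18.75%, beside 8.30%). Hcfc1, a large chromatin cofactor that binds Bap1, read 11.17, 11.23 and 11.15 in control replicates and 10.97, 10.86 and 10.85 in VPA replicates. Its VPA arrays were all lower, but the difference of -0.29 (SE 0.0822) had an adjusted p of 0.104. Bard1, the partner of Brca1 in a ubiquitin ligase, differed by -0.31 (SE 0.0948, adjusted p = 0.122). The Asxl genes, named after their values were seen because their proteins activate Bap1, differed by 0.0003, -0.08 and -0.26 for Asxl1, Asxl2 and Asxl3 (adjusted p 0.999, 0.704 and 0.234).

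For the 16 measured partners of Uchl5 in the proteasome and INO80, 0 passed limma's test (beside 2.34% of all genes). Adrm1 and Ino80e of this list had no probe set that names exactly 1 gene and were not tested. Below zero lay 12 of the 16, beside 11684 of all 19938 genes. By unadjusted p (0.05) 0 lay higher (beside 9.82% of all genes) and 1 lay lower (6.25%, beside 8.30%). That gene was Ruvbl1, an ATPase of INO80, with 10.15, 9.86 and 10.13 in control replicates, 9.71, 9.61 and 9.81 in VPA replicates, and a difference of -0.33 (SE 0.105, adjusted p = 0.138). The median over the partners was -0.08, beside -0.04 over all genes. Uba6, an activating enzyme of ubiquitin and the 1 measured gene of its list, read 11.71, 11.87 and 12.06 in control replicates and 12.42, 12.46 and 12.22 in VPA replicates. Its groups did not overlap, and the difference of 0.49 (SE 0.112) had a limma adjusted p of 0.0574.

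In the Nedd8 pathway, to which Uchl3 belongs, 1 of 18 measured genes rose (5.56%, beside 1.71% of all genes), 0 fell and 17 did not pass. By unadjusted p (0.05) 2 lay higher (11.1%, beside 9.82% of all genes) and 0 lay lower (beside 8.30%). Dcun1d4, which promotes the attachment of Nedd8 to cullins, rose from 10.07, 10.58 and 10.27 in control replicates to 11.23, 11.16 and 10.84 in VPA replicates, or 1.70-fold (log2 0.77, SE 0.146, limma adjusted p = 0.0316). Every VPA array was above every control array. Leaving out control replicate 1 or 3 or VPA replicate 1 or 2 ended the call, at adjusted p of 0.124, 0.101, 0.126 and 0.125. Nedd8 itself and the Nedd8 protease gene Senp8, both named after their values were seen, differed by -0.18 and 0.22 (adjusted p 0.523 and 0.621).

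Uchl1 is used as a marker of neuronal, neuroendocrine and germ cells, so markers of these cells were set beside it. The lists were chosen with earlier results of these data known, so their counts are no independent support. Of 31 measured neuronal and neuroendocrine markers, Uchl1 not counted, 8 rose (25.8%, beside 1.71% of all genes), 0 fell and 23 did not pass. By unadjusted p (0.05), 12 lay higher (38.7%, beside 9.82%) and 1 lower (3.23%, beside 8.30%). All VPA arrays lay above all control arrays in 11 (35.5%, beside 11.1%) and below in 5 (16.1%, beside 12.0%). The mean log2 level of the list was 7.18 to 7.24 in control arrays and 7.44 to 7.61 in VPA arrays. Bex1, which encodes a small adaptor protein abundant in brain, rose from 6.77 ± 0.18 to 8.32 ± 0.09 (SD, n = 3 each, log2 1.55, SE 0.108, limma adjusted p = 0.000962). Gap43, a protein of growing axons, rose by 1.25 (SE 0.143, adjusted p = 0.00897) and Syt1, the calcium sensor of synaptic vesicles, by 0.78 (SE 0.0946, adjusted p = 0.00973). The Syt1 call ended without control replicate 1 (adjusted p = 0.0509). The next genes were named after their values were seen. The 5 with all VPA arrays below were Rbfox3, Elavl4, Chgb, Dcx and Cplx2, with differences from -0.29 to -0.11, and none passed. The neuroendocrine genes Chga, Insm1 and Ddc differed by -0.05, -0.07 and -0.04 and did not pass, while Syp and Scg2 rose by 0.90 and 0.64 (limma adjusted p 0.0456 and 0.0392). Whether the Syp and Scg2 calls held with single arrays left out is not given here. The count that rose was 2 without control replicate 1, 6 without control replicate 2 and 3 without control replicate 3, and it was 3, 3 and 8 when VPA replicates 1, 2 and 3 were left out in turn. The part of these markers in the Uchl1 difference was not tested.

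Of 22 germ cell markers 0 passed limma's test (beside 2.34% of all genes). By unadjusted p (0.05) 0 lay higher (beside 9.82% of all genes) and 2 lay lower (9.09%, beside 8.30%). Zbtb16 and Tex101, both spermatogonial or germ cell genes, differed by -0.36 and -0.25 (adjusted p 0.11 and 0.216). The mean level of the list was 6.25 to 6.37 in control and 6.24 to 6.31 in VPA arrays. Stra8 itself, the gene in the strain name of the VPA samples, read 4.59 ± 0.04 in control and 4.54 ± 0.10 in VPA arrays (SD, n = 3 each). Whether the Stra8 level bears on the strain label was not tested. Over the list the gene means ran from 3.66 to 10.04 in control and from 3.68 to 10.08 in VPA arrays. The germ cell genes Ddx4 and Dazl read 4.75 and 4.52 in control and 4.76 and 4.43 in VPA arrays, whereas Gfra1 and Id4, which spermatogonia share with other cells, read 10.04 and 9.85 in control and 9.93 and 10.08 in VPA arrays. Id4 differed by 0.22 (adjusted p = 0.383).

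Of 15 pluripotency markers 0 passed limma's test (beside 2.34% of all genes). By unadjusted p (0.05) 0 lay higher (beside 9.82% of all genes) and 4 lay lower (26.7%, beside 8.30%). Fgf4 and Esrrb differed by -0.33 and -0.20 (adjusted p 0.0997 and 0.22), and the mean level of the list was 6.94 to 7.07 in control and 6.82 to 6.90 in VPA arrays. Pou5f1 and Nanog, core factors of undifferentiated stem cells, read 5.63 and 6.35 in control and 5.27 and 6.14 in VPA arrays. Sox2, Tbx3 and Klf4, which other cells also use, read 11.58, 10.88 and 10.22 in control and 11.26, 10.72 and 10.33 in VPA arrays. Levels of different probe sets cannot be ranked against each other, but each gene can be compared between the groups. With VPA, which the labels call undifferentiated, 12 of the 15 lay lower and 3 higher. Over all genes 11684 of 19938 lay lower. Whether the stem cell label holds was not tested.

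Of 17 prostate and epithelial markers 0 passed limma's test (beside 2.34% of all genes). By unadjusted p (0.05) 2 lay higher (11.8%, beside 9.82% of all genes) and 0 lay lower (beside 8.30%). The list's mean level was 6.75 to 6.81 in control and 6.73 to 6.83 in VPA arrays. The 2 of smallest p were Epcam at 0.29 and Krt19 at 0.41 (adjusted p 0.1 and 0.264). The secreted prostate gene Pbsn read 3.55 in control and 3.50 in VPA arrays, and Msmb 4.84 and 4.93, whereas the gene means of the list reached 10.15 and 10.31 at Fkbp5, where values of the table ran from 1.71 to 14.70. The files give no detection call, so absence could not be set for these genes.

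Of 12 mesenchymal markers 1 rose (8.33%, beside 1.71% of all genes), 0 fell and 11 did not pass. By unadjusted p (0.05) 1 lay higher (8.33%, beside 9.82% of all genes) and 3 lay lower (25%, beside 8.30%). Below zero lay 7 of the 12, beside 11684 of all 19938 genes. All VPA arrays were below all control arrays in 4 (33.3%, beside 12.0% of all genes). The mean level of the mesenchymal list was 10.45 to 10.58 in control and 10.44 to 10.51 in VPA arrays. Its gene means ran from 8.03 to 13.90 in control and from 7.91 to 13.88 in VPA arrays. Thy1, a surface protein of fibroblasts and neurons, rose by 0.99 (SE 0.122, limma adjusted p = 0.00973). The 3 lower genes, named after their values were seen, did not pass: Tagln, Col3a1 and Pdgfrb, of smooth muscle, collagen and growth factor signalling, differed by -0.61, -0.46 and -0.36 (adjusted p 0.104, 0.159 and 0.0923). Of 10 leukocyte markers the actin regulator gene Coro1a rose by 0.81 and the tetraspanin gene Cd53 fell by 0.88 (limma adjusted p 0.0187 and 0.0373). Thus 1 of the 10 rose and 1 fell, beside 1.71% and 0.632% of all genes. The Coro1a call was lost when control replicate 1 or 3 or VPA replicate 1 or 2 was left out (adjusted p 0.0888, 0.0717, 0.0602 and 0.0769), and that of Cd53 without any array other than VPA replicate 3 (control replicates 0.142, 0.0712 and 0.0717, VPA replicates 1 and 2 0.0734 and 0.0608). The mean level of the leukocyte list was 6.76 to 6.91 in control and 6.68 to 6.73 in VPA arrays. By unadjusted p (0.05) 1 gene was higher (10%, beside 9.82% of all genes) and 2 were lower (20%, beside 8.30%). Below zero lay 8 of the 10, beside 11684 of all 19938 genes. The leukocyte gene Ptprc read 5.74 in control and 5.51 in VPA arrays.

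The size of the Uchl1 difference ran from 1.53 to 2.02 when single arrays were left out. It was 1.77, 1.94 and 1.53 without control replicates 1, 2 and 3 and 1.57, 1.65 and 2.02 without VPA replicates 1, 2 and 3, so VPA replicate 3 pulled it down most and control replicate 3 pulled it up most. For Uchl3 the same fits gave 0.40, 0.33 and 0.43 and then 0.43, 0.37 and 0.36, all above zero, with adjusted p from 0.1 to 0.202. For Bap1 they gave 0.04 to 0.15, and for Uchl5 -0.05 to 0.07, with adjusted p of at least 0.601.

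**Figure D4:**
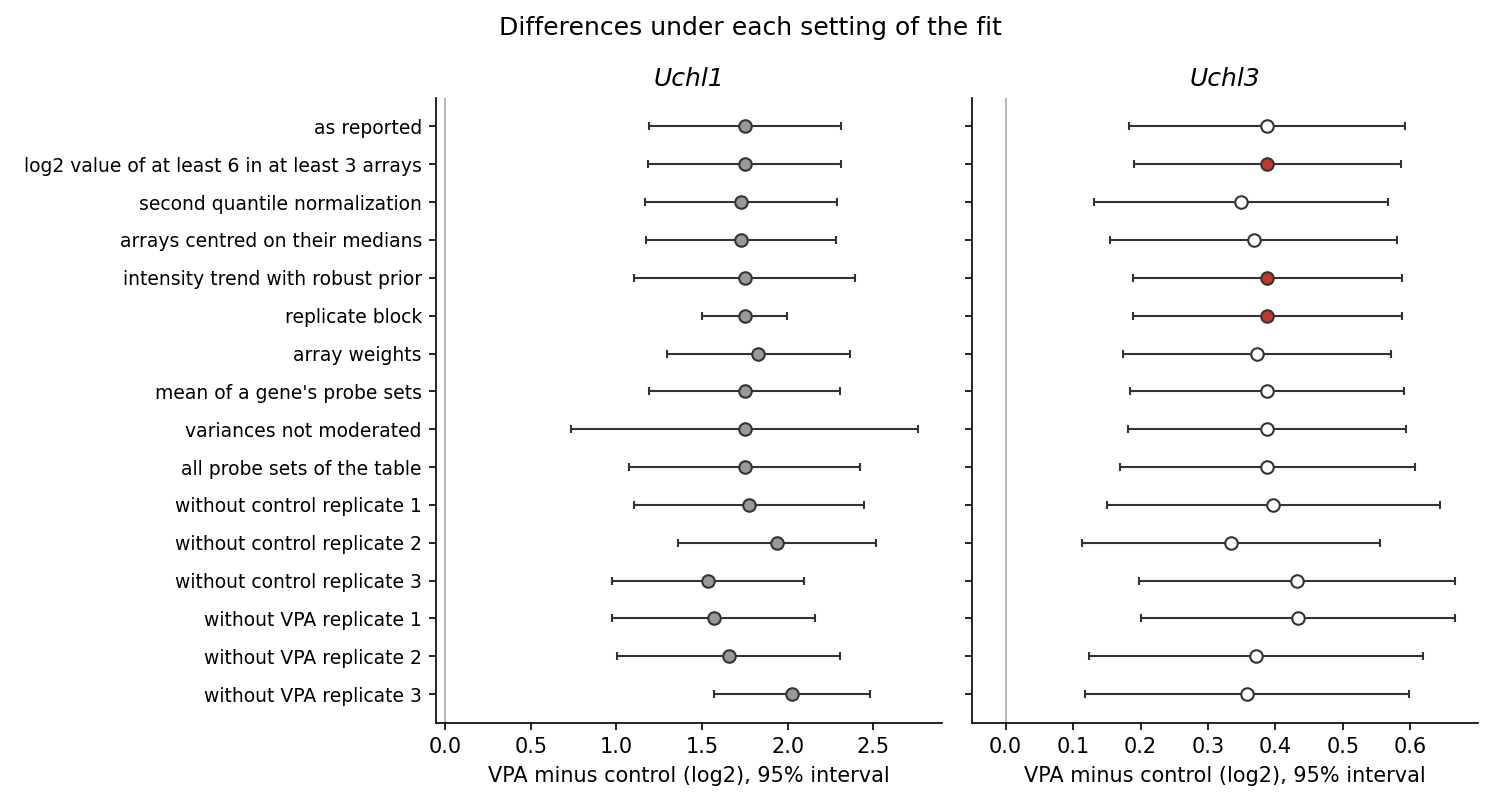
VPA minus control difference (log2) with its 95% interval for Uchl1 and Uchl3 under each setting of the fit, the reported setting on top. Grey marks Uchl1, which carries no test; for Uchl3 the filled red points are the 3 settings with an adjusted p under 0.05, and all its intervals lie above zero.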

How the data were processed

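The authors deposited log2 values, for which the submitters' processing notes name RMA and Affymetrix Expression Console without a version or a genome build. RMA corrects background, equalises the distributions of the arrays and summarises probes. Labelling used 300 ng of RNA, per the labels' protocols. Of 35556 probe sets, 21789 named exactly 1 gene; 12146 are not listed in the annotation and 1621 name several genes. For each gene the probe set with the highest mean was kept (19938 genes), and symbols were updated through RefSeq (GRCm38.p6; 21698 matched).

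VPA was compared with control with limma 3.58.1 (R 4.3.3), using lmFit and eBayes on a model of the group alone, two-sided, with Benjamini-Hochberg adjustment over all genes; changed, rose and fell mean an adjusted p under 0.05. The fit was tested on simulated data. The members and lists were chosen with earlier results of these data known, so patterns already seen in them, the neuronal one included, are no independent support. Of each list up to 3 changed genes per direction, or the 2 of smallest p, are named, with 2 neighbours on each side of each member and the 6 genes most like Uchl1. List entries without a 1-gene probe set were not used here. The 15 other settings are a filter, normalizations, priors, weights, a block, other probe sets and leaving out each array.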

Additional observations from a re-analysis of the deposited data

How the results depend on the processing

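The Uchl1 difference ran from 1.53 to 2.02 under the 15 other settings. That is within 1 within-group SD of 1.75, but this SD (0.447) is itself wide. Bap1 stayed positive and unpassed (0.04 to 0.15). Uchl3 kept its direction; its difference of 0.39 passed with low genes left out, with the trended robust prior and with the replicate number as a block (adjusted p 0.0437, 0.0453 and 0.037). Uchl5, close to zero, was between -0.050 and 0.068 with 1 array left out, positive without control replicate 3 (0.068) or VPA replicate 3 (0.027). Counts were less steady. Of all genes 467 passed, and 1199 with the replicate block, 714 with array weights, 2 with every probe set tested, 0 with unmoderated variances (2898 at an unadjusted p under 0.05) and 20 to 815 with 1 array left out. The number of genes of the other deubiquitinase families that rose was 1. It was 2 with the trended robust prior, 5 with the replicate block and 2 with array weights. It was 0 with every probe set or unmoderated variances (15 higher at an unadjusted p under 0.05 in each) and 0 to 4 with 1 array left out. Of the neuronal and neuroendocrine markers 8 rose, and 0 with unmoderated variances (10 higher at an unadjusted p under 0.05), 1 with every probe set and 2 to 8 with 1 array left out. The causes were not tested. Same-numbered arrays deviated from their group means with correlations of 0.0841, 0.451 and 0.284. Across the groups, every array but control replicate 1 correlated best with its same-numbered array. Control replicate 1 correlated best with VPA replicate 3 (0.2). Whether the numbers pair the arrays was not tested, and the reported fit left the replicate number out. The replicate block left the Uchl1 difference at 1.75, with an SE of 0.110 in place of 0.249, and ended none of the 467 calls.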
